A study of Drosophila melanogaster with 2 samples.

Results

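The vacuolar ATPase is the proton pump of lysosomes, endosomes and the apical membranes of acid-secreting epithelia. Its gene family in Drosophila melanogaster was taken as every protein-coding gene whose symbol starts with Vha, which gave 33 of the 13968 protein-coding genes on the chromosome arms. The 33 genes encode 14 kinds of subunit. The membrane sector V0 had 20 genes and the cytosolic sector V1 had 13.

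The data are from chromatin immunoprecipitation with sequencing (ChIP-seq) for GATAe, a GATA-family zinc-finger transcription factor of the endoderm and midgut. Transgenic flies expressed GATAe fused to enhanced green fluorescent protein (eGFP), their whole embryos were collected at 0 to 24 h of age, and anti-GFP was used for the precipitation. The design is a single group of 2 biological replicates, with no other genotype or stage. A whole embryo mixes tissues that carry GATAe with tissues that do not, so a peak here cannot be placed in a cell type.

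In V1, a ring of alternating A and B subunits hydrolyses ATP, and the turning of a central stalk (D and F) is passed to a rotor ring (c and c'') in the membrane, where protons pass between the ring and subunit a. E and G form the outer stalks, and C and H act in the joining and parting of V1 and V0. In the fly midgut, copper cells secrete acid with this pump. Fly V-ATPase genes are known targets of Mitf, the fly relative of TFEB, which binds an E-box whose core is CACGTG.

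The authors' conservative list pairs both replicates and was read first. A gene was counted as occupied when a peak's summit fell in the gene body or the 2 kb before it. By that rule 5 of 33 Vha genes (15.2%) were occupied, against 19.0% of all protein-coding genes (2657 of 13968). The 5 were Vha16-1, Vha100-5, Vha100-2, Vha68-1 and Vha36-3, and they held 8 summits, 6 in V0 genes and 2 in V1 genes. With 1 group and 2 replicates there is no test between groups, so the counts are descriptions, set beside the same count over all genes.

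The sequences around 4 of these summits are shown because they include summits with and without the GATA word that the factor is known for. They run up to 75 bp to either side of the summit in dm6, in the direction of the strand named, with untranslated bases left out. Capitals mark GATA on either strand, and 6 capitals together mark the longer word WGATAR, which is GATA with an A or a T before it and an A or a G after it. The first 2 belong to Vha100-5, at its start (chr2L:11738814-11738947, plus strand) and in its intron (chr2L:11740768-11740918, plus strand). The third is the promoter summit of Vha68-1 (chr2L:13004163-13004313, minus strand), and the last is the summit upstream of Vha36-3 (chrX:2582227-2582377, minus strand).
Vha100-5 start: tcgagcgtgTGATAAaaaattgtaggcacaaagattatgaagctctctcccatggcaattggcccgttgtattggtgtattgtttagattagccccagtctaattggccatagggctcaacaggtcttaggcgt
Vha100-5 intron: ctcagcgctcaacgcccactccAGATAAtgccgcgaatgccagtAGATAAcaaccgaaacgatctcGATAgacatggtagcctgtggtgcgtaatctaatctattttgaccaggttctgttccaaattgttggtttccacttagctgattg
Vha68-1 promoter: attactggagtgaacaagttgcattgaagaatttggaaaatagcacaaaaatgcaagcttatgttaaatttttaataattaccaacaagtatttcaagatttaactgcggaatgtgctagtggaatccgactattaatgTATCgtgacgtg
Vha36-3 upstream: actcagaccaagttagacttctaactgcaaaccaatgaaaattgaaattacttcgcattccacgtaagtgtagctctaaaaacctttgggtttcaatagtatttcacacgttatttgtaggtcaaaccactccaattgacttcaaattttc

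Both Vha100-5 sequences hold at least 1 WGATAR. The Vha68-1 sequence holds 1 GATA without those flanking letters, and in the 151 bp shown for Vha36-3 the letters GATA do not occur.

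Among the 8 summits in the 5 occupied genes, the 4 highest signals were in V0 genes. Signal is the authors' own measure of peak strength. Since lists differ in its scale, the rank within a list is given beside it. The 6 V0 summits included the 4 Vha summits at or above the list's median signal of 92.2, and both V1 summits lay under it. The weakest 2 of the 8 were V0 summits too, both in Vha100-2. The median over the 8 was 105.

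Vha16-1 encodes subunit c, the repeated protein of the rotor ring, and had the strongest Vha peak. It lay on 2R at 6630886 to 6631042 in an intron of the gene, with its summit 1416 bp downstream of the nearest annotated start. Its signal was 199, rank 289 of 3047 in the conservative list. It was 79.5 in replicate 1's own list (rank 595 of 2479) and 122 in replicate 2's own list (rank 136 of 1822), so both replicates called it and it stood higher in the order of replicate 2. The peak held 3 WGATAR words with centres 25.5, 30.5 and 64.5 bp from the summit, of which the first 2 share a base. The authors' list from pooled reads also placed a summit 26 bp upstream of a Vha16-1 start, with a signal of 64.8. A promoter summit of 37.9 was in replicate 1's own list, 85 bp upstream, while replicate 2's own list instead held a second intronic summit of 32.7, 2354 bp downstream of the start.

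Vha100-5 encodes 1 of the 5 a subunits, which carry the proton channels. It had 2 peaks on 2L. The intronic peak (chr2L:11740663-11741022) had its summit 1895 bp downstream of the start and a signal of 153, rank 535. Its signals in the replicates' own lists were 74.3 in replicate 1 (rank 686) and 74.3 in replicate 2 (rank 533). The sequence shown above has 2 copies of AGATAA in this intron, 28.5 and 50.5 bp from the summit. The peak at the start (chr2L:11738709-11739068) had its summit 59 bp upstream, outside any gene, and a signal of 121, rank 871. Replicate 1's own list held it at 60.9, and replicate 2 held it only among its ranked candidates (the authors' lists before the threshold), at 49.9 with an irreproducible discovery rate (IDR, an estimate of how often peaks at that rank fail to recur) of 0.0133. The authors' threshold in every list was an IDR of 0.01, so that value lies just outside. Its 1 WGATAR was 63.5 bp from the summit.

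Vha100-2, another a subunit, had 3 peaks on 3R. Vti1b, which encodes a SNARE protein, lies on the opposite strand, and its window holds all 3 summits too. The strongest (chr3R:18397000-18397359) had a signal of 121, rank 874. It lay 252 bp upstream of an internal start of Vha100-2 and 185 bp into Vti1b, in an intron of the one and in the 5′ untranslated region of the other. Its signal was 66.9 in replicate 1's own list and 54.1 in replicate 2's. The other two peaks passed in neither replicate's own list. The one 33 bp into the 5′ untranslated region of Vha100-2 had a signal of 66.8, rank 2485, and replicate signals of 39.6 and 34.8 with IDRs of 0.0180 in replicate 1 and 0.379 in replicate 2. The intronic one, 561 bp downstream, had a signal of 48.7, rank 2785, and replicate signals of 34.4 and 28.3 with IDRs of 0.0207 and 0.207. It was the weakest Vha peak in the conservative list, with a paired IDR of 0.00904. The strongest peak had 2 WGATAR words, at 78.5 and 80.5 bp on opposite sides of the summit. From the summit in replicate 1's own list they lay 158.5 and 0.5 bp away. From the stronger summit in replicate 2's own list they lay 50.5 and 108.5 bp away. Each word is shown with its flanking bases on the strand where it reads WGATAR (minus for both).
Vha100-2 first word, chr3R:18397087-18397116: acctgtacatcgTGATAGgcgcacccacac
Vha100-2 second word, chr3R:18397246-18397275: cgctccgctcagTGATAAaagctgaagatt

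**Figure D1:**
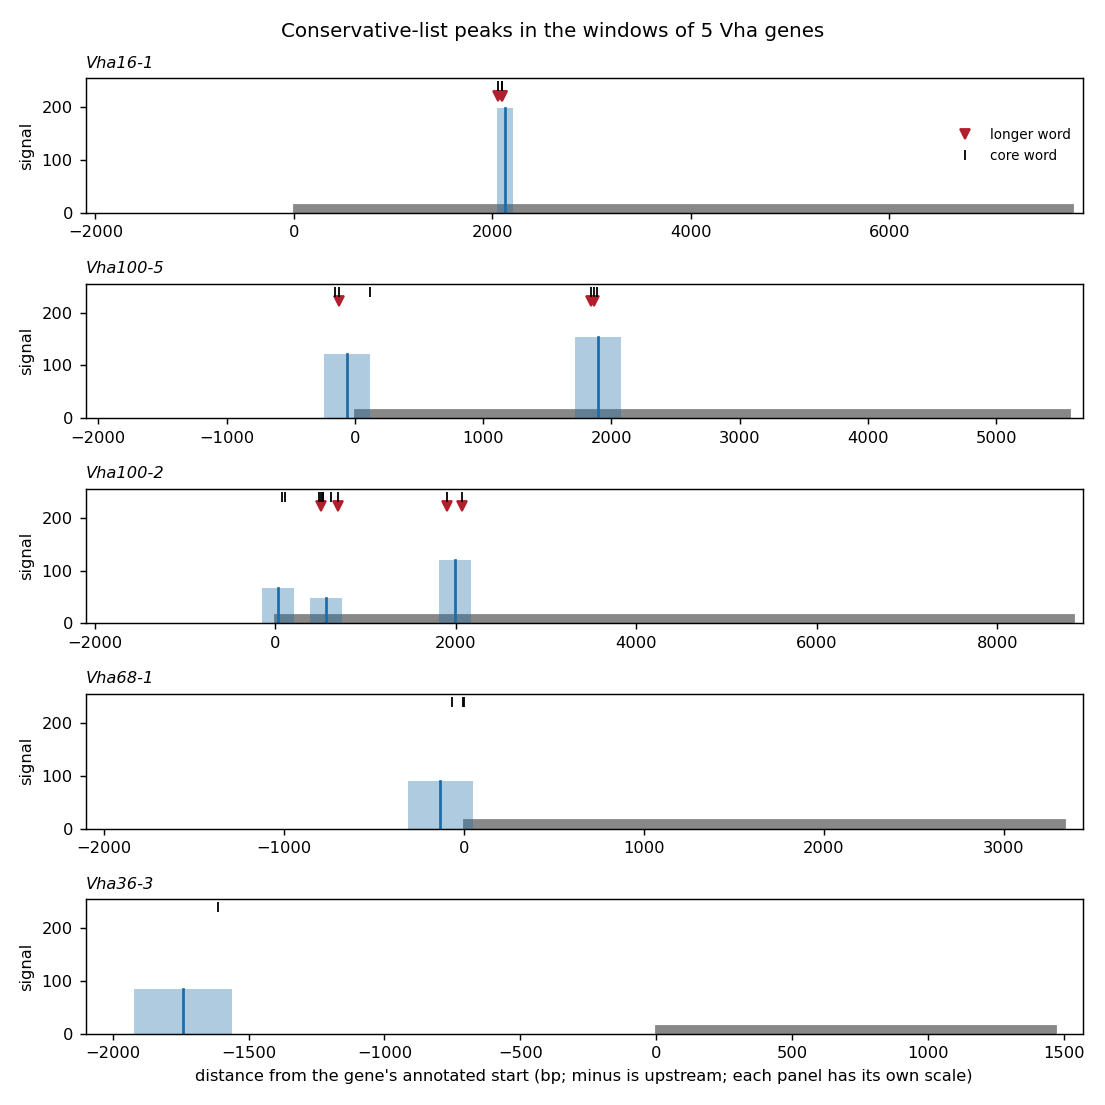
Authors' signal of each conservative-list peak (blue box over the peak, line at the summit) against distance from the annotated start of the gene in bp, for the 5 occupied Vha genes; the grey bar is the gene body, triangles (longer word) mark WGATAR in the peaks and ticks (core word) mark any GATA. Vha16-1 and Vha100-5 have their highest peak inside the gene, while Vha68-1 and Vha36-3 have their summit upstream of it.

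Vha68-1 encodes a catalytic A subunit of V1. Its 1 peak (chr2L:13004058-13004417) lay between genes with the summit 131 bp upstream of the start, and the same summit fell in the window of mTor, the kinase that is activated at the lysosome surface. Its signal was 89.7, rank 1603. Neither replicate's own list held it. Both ranked lists did, replicate 1 with 50.4 at an IDR of 0.0125 and replicate 2 with 44.3 at 0.0120, while the paired IDR was 0.000498. Its 3 GATA cores lacked the flanking letters of WGATAR.

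Vha36-3 encodes a D subunit of the central stalk. Its 1 peak (chrX:2582122-2582481) had a signal of 85.1, rank 1771, with the summit 1742 bp upstream. That summit lay in an intron of AANATL7, 175 bp from a start of that gene, so its assignment to Vha36-3 rests on the 2 kb window. It was in replicate 1's own list at 53.2 (rank 1379), and in replicate 2 only as a candidate at 28.6 with an IDR of 0.103. No WGATAR was found in the peak.

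**Figure D2:**
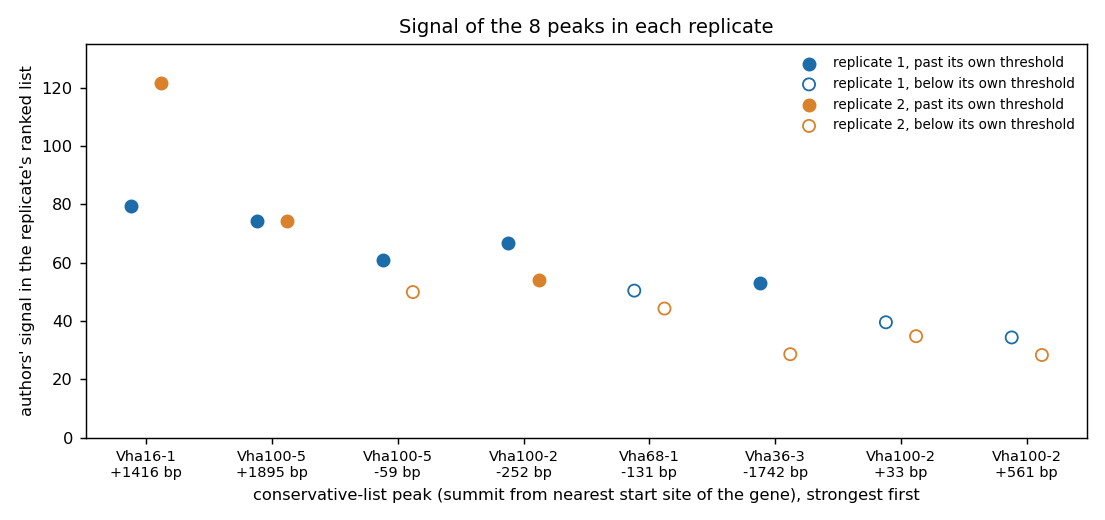
Authors' signal in each replicate's ranked list for the candidate that overlaps each of the 8 conservative-list peaks, strongest first; filled points passed that replicate's own threshold and open points did not. The first peak, in Vha16-1, has 79.5 in replicate 1 and 122 in replicate 2, and the last, in Vha100-2, has 34.4 and 28.3.

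Of the 8 summits, 3 met a peak in both replicates' own lists, 2 in replicate 1's alone, 0 in replicate 2's alone and 3 in neither. For all 3032 arm summits of the list these shares came to 46.5%, 25.2%, 8.61% and 19.7%. All 8 met a candidate in both ranked lists, as did 98.9% of all summits. At the 3 peaks that both replicates called, their summits lay 108 bp apart for Vha100-2, 85 bp apart for Vha16-1 and 63 bp apart for the intron of Vha100-5.

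The shares of V0 and V1 genes were close in the conservative list, where 3 of 20 V0 genes (15.0%) and 2 of 13 V1 genes (15.4%) were occupied. The list from pooled reads gave the same counts, with 17.7% of all genes occupied. In replicate 1's own list 6 Vha genes (18.2%) were occupied, 4 in V0 and 2 in V1, against 17.5% of all genes. In replicate 2's own list 3 (9.09%) were, all in V0, against 12.4% of all genes. Vha16-1, Vha100-5 and Vha100-2 were the 3 genes that all 4 lists named. Replicate 1's own list added Vha36-1 (subunit D, 45.8, 32 bp upstream, rank 1809) and Vha16-5 (subunit c, 39.1, rank 2199). The Vha36-1 summit also fell in the windows of CG8187 and eIF2Bgamma, and the Vha16-5 summit lay 9 bp from a start of CG12299. In replicate 2 the Vha36-1 peak met a ranked candidate of 13.7 with an IDR of 0.579, and the Vha16-5 peak met none. In all, 7 Vha genes had a summit in at least 1 thresholded list and 26 had none. The matching total over all genes is not given, so only the counts list by list have a share beside them.

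**Figure D3:**
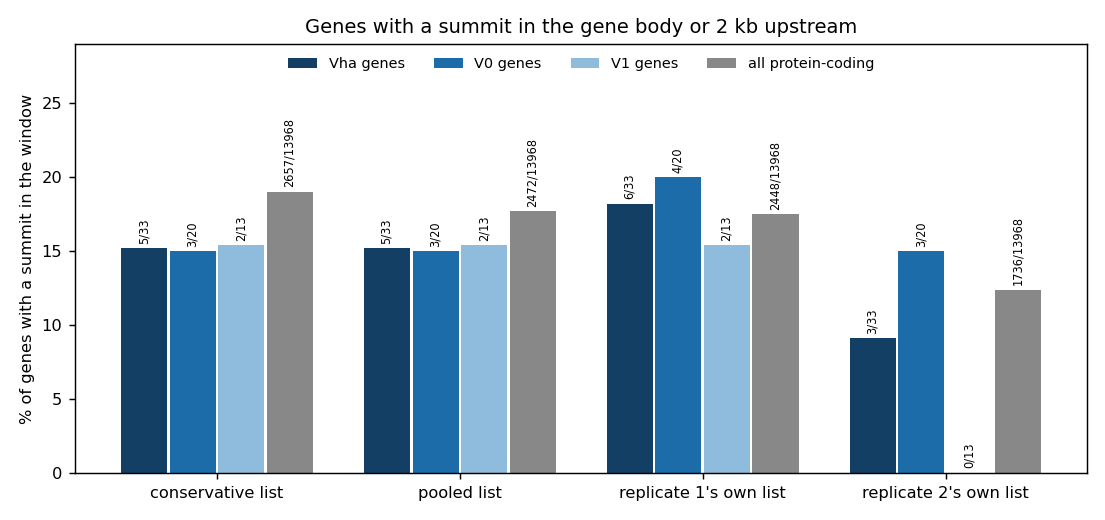
Share of genes (%) with a summit in the body or 2 kb upstream, for all 33 Vha genes, the 20 V0 genes, the 13 V1 genes and all 13968 protein-coding genes, in 4 thresholded lists; numbers over the bars are genes occupied of genes counted. No V1 gene is occupied in replicate 2's own list.

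Where a subunit had several genes and any was occupied in the conservative list, it was 1 or 2 of the copies. In that list 19.0% of all genes were occupied. The counts below, over few genes each, do not separate subunits with 1 gene from those with several. Of the 9 subunits with more than 1 gene, 4 had an occupied copy: a (Vha100-2 and Vha100-5 of 5 genes), c (Vha16-1 of 5), A (Vha68-1 of 3) and D (Vha36-3 of 3). None of the 5 subunits with a single gene (B, C, E, G and H, encoded by Vha55, Vha44, Vha26, Vha13 and VhaSFD) was occupied in any of the 4 thresholded lists. Neither were d (VhaAC39-1 and VhaAC39-2), c'' (VhaPPA1-1 and VhaPPA1-2), F (Vha14-1 and Vha14-2), the 4 VhaM9.7 genes of the small subunit e, or the accessory genes VhaAC45 and VhaAC45RP. Among the a subunits, Vha100-1, the form known from fly neurons, and Vha100-4, known from acid-secreting copper cells of the fly midgut, had no thresholded summit. Vha100-4 lies 517 bp from Vha100-2 on the same strand, and its strongest candidate was 11.8 in replicate 1 and 18.1 in replicate 2. Vha68-2 and Vha68-3, neighbours 178 bp apart, share ranked candidates that cannot be given to one of them. The strongest of these was 49.5 in the paired ranked list.

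Window length goes with occupancy. In the whole annotation 10.7% of genes with a window under 4 kb and 26.4% of longer ones were occupied. Among Vha genes 1 of 18 short ones (5.56%) and 4 of 15 long ones (26.7%) were. The median window was 3732 bp for Vha genes and 4164.5 bp for all genes. It was 3541 bp for V0 and 4508 bp for V1. Vha36-3 was the only Vha gene occupied in the conservative list with a window under 4 kb.

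**Figure D4:**
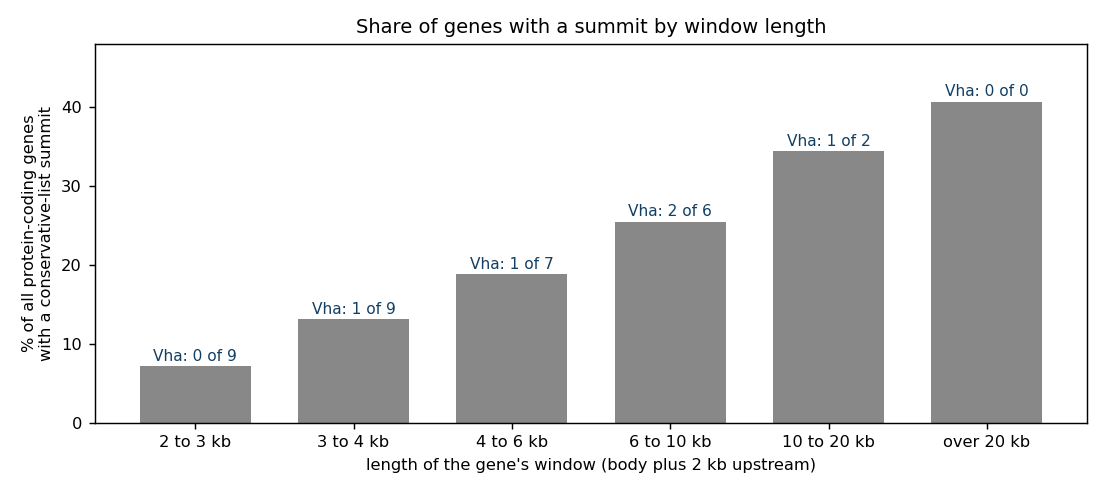
Share of all protein-coding genes (%) with a conservative-list summit, by length of the window (body plus 2 kb upstream); the label over each bar gives the occupied Vha genes of those in that length class. The share over all genes climbs from 7.19% at 2 to 3 kb to 40.7% over 20 kb.

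Summits close to a start were counted apart. Of the Vha genes, 3 (Vha100-2, Vha100-5 and Vha68-1, 9.09%) had a conservative-list summit within 500 bp of an annotated start of their own, against 11.4% of all genes. When each summit was given only to the gene with the nearest start, 4 Vha genes (12.1%) held one, against 14.5% of all genes, and Vha36-3 was the one lost. In the gene body alone 3 Vha genes (9.09%) held a summit, against 9.60% of all genes, and with 5 kb upstream 7 (21.2%) did, against 25.6%. Counting only peaks at or above the median signal left 3 (9.09%), against 12.1%. In the conservative list 6 of the 8 summits had a Vha gene's own start as the nearest, and 5 also lay in the window of another gene.

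The ranked lists hold candidates below the authors' threshold and so reach most genes. In the paired ranked list 28 Vha genes (84.8%) had a candidate, against 81.1% of all genes. In the pooled ranked list 20 (60.6%) did, against 56.1%. Candidates were found in 25 Vha genes (75.8%) in replicate 1 and 27 (81.8%) in replicate 2, against 74.9% and 81.5% of all genes. Both replicates had one in 22 Vha genes (66.7%), against 66.5% of all genes. By sector these were 10 of 20 V0 genes and 12 of 13 V1 genes (92.3%). The median window was longer for V1 than for V0, as given above. Whether window length bears on this difference in candidates was not tested. When the candidates had to overlap, 20 Vha genes remained (60.6%), 10 in V0 and 10 in V1, against 54.7% of all genes. Within 500 bp of a start, 15 Vha genes (45.5%) had a candidate in both replicates, against 33.3% of all genes. Vha16-2, Vha16-3 and VhaM9.7-c had none in any ranked list.

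The strongest candidate of a typical Vha gene stood about where that of any gene did. Its median place, as the percentage of the ranked list with a lower signal, was taken over the genes that had a candidate. In replicate 1 it was 79.3 for Vha genes and 78.0 for all genes, and in replicate 2 it was 84.0 and 84.2. The medians for V1 were 84.3 in replicate 1 (12 of 13 genes) and 90.8 in replicate 2 (13 of 13). Those for V0 were 77.7 (13 of 20 genes) and 71.5 (14 of 20), so more V0 than V1 genes were left out.

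Below the threshold, the 6 Vha genes that stood highest by the lower of their replicate places were Vha13, Vha68-2, Vha44, Vha55, VhaSFD and VhaPPA1-1. Vha13 encodes subunit G of the outer stalks and its strongest candidates stood above 88.4% of the list in replicate 1 and 88.1% in replicate 2, though at different places in the window. Vha68-2 encodes subunit A, with 85.1% and 94.1%. Its replicate 1 candidate was 1 bp from a start of its own, and its replicate 2 candidate is one it shares with Vha68-3. Vha44 encodes subunit C, with 84.6% and 87.4%, and its strongest candidates again lay apart, 19 bp from its start in replicate 1 and near Hmgs in replicate 2. VhaSFD encodes subunit H, with 79.3% and 96.3%.

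Vha55, the single gene of the B subunit, had the lowest paired IDR among the Vha genes not occupied in the conservative list. Its strongest candidate in replicate 1 lay 71 bp from a start and stood above 83.9% of the list. Its strongest in replicate 2 was an intronic one that stood above 95.5% of the list, and at that place replicate 1 had a candidate above 82.0% of its own. The intronic candidate, 964 bp downstream of the start, had a signal of 52.8 and an IDR of 0.0169 in the paired ranked list, and it held a WGATAR within 50 bp of the summit. At an IDR of 0.05 it became the sixth occupied Vha gene (6 of 33, 18.2%), against 25.9% of all genes at that setting. VhaPPA1-1, subunit c'' of the ring, had a candidate of 43.6 centred 14 bp from its start, with an IDR of 0.0589. Signal alone does not order the genes across the threshold. Vha36-1 had a candidate of 57.7 in the paired ranked list, above the weakest occupied peak of Vha100-2 at 48.7. Its IDR was 0.671 in that list and 0.0249 in the pooled ranked list. Its candidates in the replicates had IDRs of 0.00517 in replicate 1 and 0.579 in replicate 2.

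**Figure D5:**
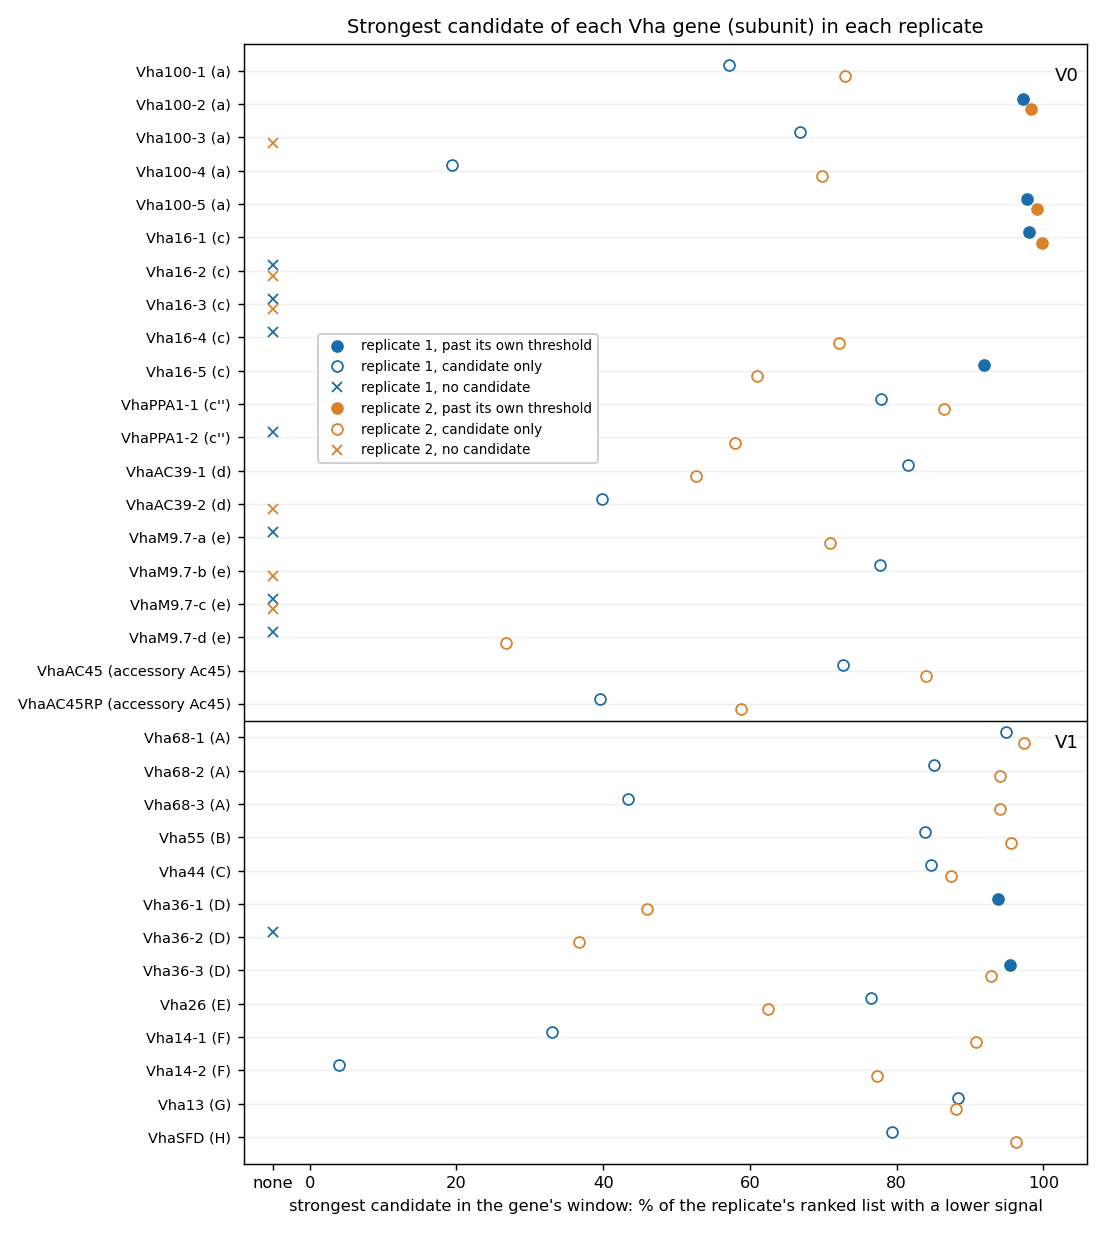
Strongest candidate of each of the 33 Vha genes (subunit in parentheses) in each replicate, as the percentage of that replicate's ranked list with a lower signal; filled points passed the replicate's own threshold, open points did not, and crosses mark genes with no candidate. Vha16-1, Vha100-5 and Vha100-2 are filled in both replicates, and 12 of 13 V1 genes have a point for each replicate.

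WGATAR lay within 50 bp of 2 of the 8 Vha summits, the intronic ones of Vha16-1 and Vha100-5, against 46.0% of all conservative-list summits. Within 100 bp it was found at 5 of 8 (62.5%), against 64.6%, and anywhere in the peak at the same 5, against 75.1%. Within 25 bp there was none, against 27.6%. GATA with any flanks lay within 50 bp of 4 of the 8, against 72.1%. The replicates' own lists gave other counts. In replicate 1's, WGATAR lay within 50 bp of 3 of 8 Vha summits (44.4% of all summits) and within 25 bp of 2 (26.3%). GATA lay within 50 bp of 6 of these 8, against 70.8%. In replicate 2's, WGATAR lay within 50 bp of 2 of 5 (49.3% of all summits) and within 25 bp of 1 (28.4%). GATA lay within 50 bp of 2 of these 5, against 73.9%. In the conservative list 89.6% of peaks share the same width of 360 bp. The gaps of 63 to 108 bp between the replicates' summits, given above for the 3 peaks that both replicates called, are wider than the 50 bp searched to either side. Whether the placing of summits bears on these counts was not tested. For candidates of Vha genes below the threshold, 18 of 94 (19.1%) had WGATAR within 50 bp, against 16.5% of all such candidates.

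The promoters, from 250 bases before to 50 after the gene's start, held WGATAR in 15 of 33 Vha genes (45.5%), against 46.7% of all genes. By sector it was 11 of 20 in V0 (55.0%) and 4 of 13 in V1 (30.8%). Of the 5 occupied genes, Vha100-5 and Vha16-1 had WGATAR in the promoter. CACGTG, which reads the same on both strands, was in 3 Vha promoters (9.09%), against 4.20% of all promoters. These were Vha44 (47 bases before the start), VhaAC45RP (173 before) and VhaM9.7-d (23 after), and none of the 3 had a summit in any thresholded list. In the conservative list 5 of the 30 Vha genes without CACGTG were occupied, as were 19.0% of all genes. With only 3 genes, their lack of a summit does not set them apart. When the E-box had to have a T before and an A after it, only Vha44 was left, beside 24 of 13968 promoters. The VhaAC45RP and VhaM9.7-d E-boxes are shown with their flanking bases, the first on the minus strand and the second on the plus strand of dm6.
VhaAC45RP E-box, chr3R:30166577-30166602: gttacagaaaCACGTGgcactcgaat
VhaM9.7-d E-box, chr3R:16975217-16975242: aatggataagCACGTGgcattcatgg

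Genes listed by hand around the pump and the lysosome were counted the same way, against the 19.0% of all genes in the conservative list. The lists were chosen with earlier results of these data known, so their shares are descriptions and not results about partners of the pump. Of 14 genes listed under V-ATPase assembly and lysosomal signalling, 6 were occupied (42.9%). By their strongest signal they led with Lamtor3 at 334, REPTOR at 261, foxo at 247 and RagC-D at 161. Lamtor3 is a subunit of the Ragulator scaffold and RagC-D is a Rag GTPase, which together bring mTor to the lysosome, and REPTOR and foxo are transcription factors of growth control. The Lamtor3 summit was nearest to the start of fws, the Lamtor2 summit (150) to that of CG30120, and the mTor summit is the one counted for Vha68-1. Window lengths in these lists were not compared with those of all genes. Of 11 lysosomal genes 3 were occupied (27.3%): the protease gene CtsB at 104, and the membrane protein genes Lamp1 at 82.7 and spin at 60.8. Of 8 exchangers and chloride channels 3 were (37.5%): the antiporter gene Nha1 at 195, ClC-a at 65.8 and ClC-c at 64.8. In replicate 1's own list the counts for the 3 groups were 6, 2 and 1, where 17.5% of all genes were occupied. In replicate 2's own list they were 5, 0 and 2, where 12.4% of all genes were.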

How the data were processed

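The measurement was GATAe-eGFP ChIP-seq with anti-GFP in 2 biological replicates of 1 group, with chromatin sheared to 200 to 800 bp per the labels. A control experiment named in the labels was not used here. The authors deposited 8 peak lists on dm6, 4 thresholded and 4 ranked: 1 of each kind per replicate, for the paired replicates and for the pooled reads, as the deposited record has it. Which aligner and which peak caller were used is not given in the sources used here. Each list gives the authors' score, which stops at 830 in the thresholded lists (an IDR of 0.01). The signal is the authors' own value per peak, on a scale that is not stated, and −log10 of the IDR is a further column of the deposited ranked lists. Read depth is unknown, and intervals that need it are not given.

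Gene models were from Ensembl release 115, with sequence from the RefSeq copy of dm6; 74 of 74 annotated Vha start codons read ATG there. Coordinates are 1-based. Members were matched by symbol. Peaks met when they shared at least 1 bp. Words were searched on both strands. Of the symbols for pump-related genes, CtsD had no match and was left out. Computation used Python 3.11.15, numpy 2.4.6, pandas 2.3.3 and matplotlib 3.10.9, and the counting was tested on simulated data.

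The members, lists and counts were chosen with earlier results of these data known. All Vha genes are accounted for. Those named in full have a conservative-list summit, then come those with a summit in another thresholded list, then the 6 highest by the lower replicate percentile among the rest. Of the pump-related lists the occupied genes with the highest signals are named, at most 4 each. Further ones are named only where their summit was nearest to another gene's start. Alternatives were each replicate's own list, the pooled list, a stricter signal, an IDR of 0.05, other windows, nearest starts, and other word widths and words.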

Additional observations from a re-analysis of the deposited data

How the results depend on the processing

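No paired analysis was possible because there is 1 group. Of 70 recomputed values, 37 kept within 1.5 times the main count (for ranks, within 1 replicate SD) and 33 moved further. Occupied Vha genes, 5 in the conservative list, ranged from 3 to 6 when 1 replicate was left out, and were 3 with peaks at or above the median signal, 3 in the gene body alone (9.60% of all genes), and 3 within 500 bp of a start. V0, 3 genes, was 3 to 4 with 1 replicate left out and 5 with 5 kb upstream, which added VhaM9.7-a and VhaM9.7-d (25.6% of all genes). V1, 2 genes, was 0 to 2 with 1 replicate left out, 0 at or above the median signal (12.1% of all genes), 0 in the gene body alone, 1 within 500 bp of a start and 1 by nearest start. Subunits with an occupied copy, 4, were 2 to 3 with 1 replicate left out, and pump-related genes, 12, were 7 to 9. Mitochondrial ATP synthase genes (symbols starting ATPsyn) had 1 of 15 occupied (6.67%, against 19.0% of all genes), 0 to 0 with 1 replicate left out and 0 in the pooled list. Proteasome genes had 1 of 48 (2.08%), 0 to 2 with 1 replicate left out and 2 in the pooled list (4.17%, against 17.7% of all genes). WGATAR within 50 bp of a Vha summit, 2 of 8, was 0 within 25 bp, 5 within 100 bp and 5 in the whole peak. It was 4 for bare GATA and 1 for GATAAG (28.9% of all summits). With 1 replicate left out it was 3 of 8 in replicate 1's own list (44.4% of all summits). In replicate 2's own list it was 2 of 5 (49.3%). Promoters with CACGTG, 3, were 1 when the letters to either side were fixed. The cause was not tested, apart from the smaller or larger window, list or word that each setting uses by construction. Read depth is unknown, so a gene with no summit is one not called here, not one shown to be unbound.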
